A study of Mus musculus with 12 samples.

Results

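The SERTA domain proteins Sertad1, Sertad2, Sertad3 and Sertad4 were followed through long-term culture of a pair of mouse osteosarcoma cell lines. The 4 genes share a family name and were selected on measured values, namely the processed signal of Sertad4, which was lost in late LM8 cells. The Sertad4 values of LM8 are therefore a description and carry no test. They were found on the arrays by the RefSeq accession of each probe, which gave 5 probes of 39429, for 4 genes of 20144. The second Sertad2 probe was the only duplicate, and every Sertad probe was printed as a single spot on each array.

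The parental Dunn cells metastasise little, and the LM8 line was obtained from them by selection in mice for metastasis. Early and late cells were at passage 25 and 86 for Dunn and at passage 24 and 91 for LM8. The labels name no treatment and no genetic change for either line. RNA of each of these 4 groups was hybridised to 3 single-colour arrays, and each of 3 slides held 1 array of every group at a fixed position, so that position and group cannot be told apart. The groups come from 1 line each, and p-values cover the spread between the arrays of a group, which may be smaller than that between independent cultures.

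Proteins of this family share the SERTA motif and act in the nucleus as partners of other transcription regulators. Sertad1 binds the kinase Cdk4 and keeps it active in the presence of its inhibitor Cdkn2a, and it stimulates transcription by the E2f1 and Tfdp1 heterodimer. Sertad2 is another coregulator of E2F factors and is known in fat for lowering the expression of lipolysis genes. Sertad3 was described as a partner of the replication protein A subunit Rpa2 and activates transcription. Sertad4 is the least studied of these proteins. The partners of Sertad1 and Sertad2 act at the G1/S transition, where cyclin D and Cdk4 release E2F factors from the retinoblastoma protein.

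The arrays differed in brightness along with the groups. The signal at the 75th percentile, by which each array was scaled, ran from 253.1 to 521.6 in early Dunn, from 609.1 to 840.4 in late Dunn, from 788.2 to 1148 in early LM8 and from 1033 to 1699 in late LM8. Between 39% and 59.6% of the probes on an array were well above background. After scaling, the median difference of all genes between LM8 and Dunn was still -0.77 (log2) at early passage and -0.57 at late passage, and that between late and early cells was -0.35 in Dunn and -0.20 in LM8. Differences of Sertad1, Sertad2 and Sertad3 between the lines are therefore also given relative to this median. So are the early line difference of Sertad4 and the Dunn passage differences of Sertad1 and Sertad4. Correlations between the arrays of a group ran from 0.918 to 0.991, and the lowest lay in late Dunn. The osteoblast genes Runx2, Sp7, Ibsp and Col1a1 were well above background on all arrays, whereas the epithelial genes Cdh1 and Krt8 and the endothelial gene Cdh5 were not on any array. Other markers of such cell types were detected, as the endothelial gene Kdr and the leukocyte gene Cd3e were well above background on all 12 arrays. On some arrays so were endothelial Pecam1, leukocyte Cd14 and Ptprc, epithelial Epcam and Krt18, and the muscle gene Des. None of the markers of leukocytes (3 measured of 4), endothelium (3 of 3), epithelium (4 of 4), muscle (2 of 2) and bone (7 of 8) was called in a comparison. Of the 3 adipocyte markers, Plin1 and Adipoq were called lower in early LM8 than in early Dunn, but Adipoq was not well above background on any array of these 2 groups.

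Sertad4 is encoded on the minus strand of chromosome 1, and its annotation holds 2 promoter windows. The letters upstream of both starts are shown because this gene had the largest passage difference of the family, with matches to the GC box GGGCGG and the CCAAT box, on either strand, in capitals. The sequences are from RefSeq for the assembly GRCm38.p6 and run 5′ to 3′ in the direction of the gene.
Sertad4, upstream start (chr1:192855753-192856002): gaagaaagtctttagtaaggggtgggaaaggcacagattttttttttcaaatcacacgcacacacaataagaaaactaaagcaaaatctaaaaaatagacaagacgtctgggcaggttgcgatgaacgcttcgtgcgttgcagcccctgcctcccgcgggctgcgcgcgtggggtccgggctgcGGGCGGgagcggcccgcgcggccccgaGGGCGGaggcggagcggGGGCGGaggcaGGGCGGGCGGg
Sertad4, downstream start (chr1:192851748-192851997): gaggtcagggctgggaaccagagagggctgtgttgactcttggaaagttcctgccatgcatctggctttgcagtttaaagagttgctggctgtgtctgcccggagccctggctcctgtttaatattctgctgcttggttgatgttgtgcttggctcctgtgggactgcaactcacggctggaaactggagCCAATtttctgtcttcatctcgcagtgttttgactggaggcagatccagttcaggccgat
The window of the upstream start held 25 CpG dinucleotides and 5 GC box matches, which partly overlap, and an observed over expected CpG ratio of 1.12. The other window held 4 CpG, a ratio of 0.23, no GC box and 1 CCAAT box match. The median of 32851 windows of the same 250 bases was 6 CpG and a ratio of 0.37, and 32.7% of them held a GC box and 33.8% a CCAAT box.

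Both promoter windows of Sertad2 and the windows of Sertad1 and Sertad3 held 16 to 20 CpG and 1 to 5 GC box matches. Neither E2F site searched (TTTCCCGC in 0.9% and TTTGGCGC in 0.4% of all windows), nor TATAAA (12.4%), nor the cyclic AMP response element TGACGTCA (1.5%) was present in any of the 6 Sertad windows. The array data do not tell which start was used, nor the methylation of these bases.

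In early LM8 cells Sertad4 gave the highest signal of the 4 groups, and in late LM8 cells it gave none above background. The processed signal, a spot's intensity after background subtraction, was 309.6, 405 and 310.4 on the early LM8 arrays and 3.99, 3.95 and 3.63 on the late ones. All 3 early LM8 spots were well above background and none of the 3 late ones, and the groups lay far apart. On the log2 scale relative to the 75th percentile, Sertad4 had a level of -1.55 ± 0.23 (SD, n = 3) in early LM8 and of -8.39 ± 0.37 (n = 3) in late LM8.

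Since the late signal was not well above background, the fold is a lower bound. Sertad4 was at least 35.3-fold lower in late LM8, with the mean of the early arrays set against the lowest signal well above background on each late array. On slides 1, 2 and 3 the difference of the measured signals was -6.67, -7.25 and -6.61 (log2), but as no late spot was well above background these values have no exact size. The loss chose the gene and has no test. The bound depended on the processing, as it was at least 5.69-fold with normexp background correction and at least 23.5-fold after quantile normalization. In RNA from whole cultures, fewer cells with the transcript and less transcript per cell cannot be told apart.

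In Dunn cells Sertad4 was dimmer than in early LM8 and was not called with passage. The signal was 17.4, 72.5 and 33.9 in early Dunn and 13.9, 86.7 and 71.0 in late Dunn. The lowest value of both groups was on slide 1, where the spot was not well above background, and the groups overlapped. The dimmest probe still well above background had a signal of 32.3 and 36.5 on these 2 arrays, against 9.03 to 16.7 on the other 10. The level was -3.34 ± 0.81 (n = 3) in early and -3.99 ± 1.38 (n = 3) in late Dunn, a difference of -0.64 (SE 0.82, limma adjusted p = 0.865). The 95% confidence interval of this difference ran from -2.68 to 1.39. Within slides 1, 2 and 3 it was -1.30, -0.43 and -0.20, lower in late cells on each, and the adjusted p with the replicate block was 0.374. With the arrays of slides 2 and 3 only it was -0.32 (limma adjusted p = 0.689). Relative to the median of all genes the difference was -0.29 on all slides and 0.26 on slides 2 and 3 only. Without scaling between arrays it was 0.33, so that its sign depended on the scaling.

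The 4 levels of Sertad4 thus stood in the order early LM8, early Dunn, late Dunn and late LM8, and the Dunn arrays of the 2 passages overlapped. Early LM8 lay 1.79 (log2, SE 0.46) above early Dunn, and 2.56 above it relative to the median gene. The difference between late LM8 and late Dunn was -4.41 (log2, SE 0.73), with no overlap of the arrays, and the late LM8 value is again one not well above background. The passage difference in LM8 minus that in Dunn was -6.20 (log2, SE 0.90). With normexp background correction these 3 values were 0.18, -1.37 and -1.55, so that their size depended on how dim signals were treated. Every one of them rests in part on the late LM8 or early LM8 arrays by which the gene was chosen and is given without a test.

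**Figure D1:**
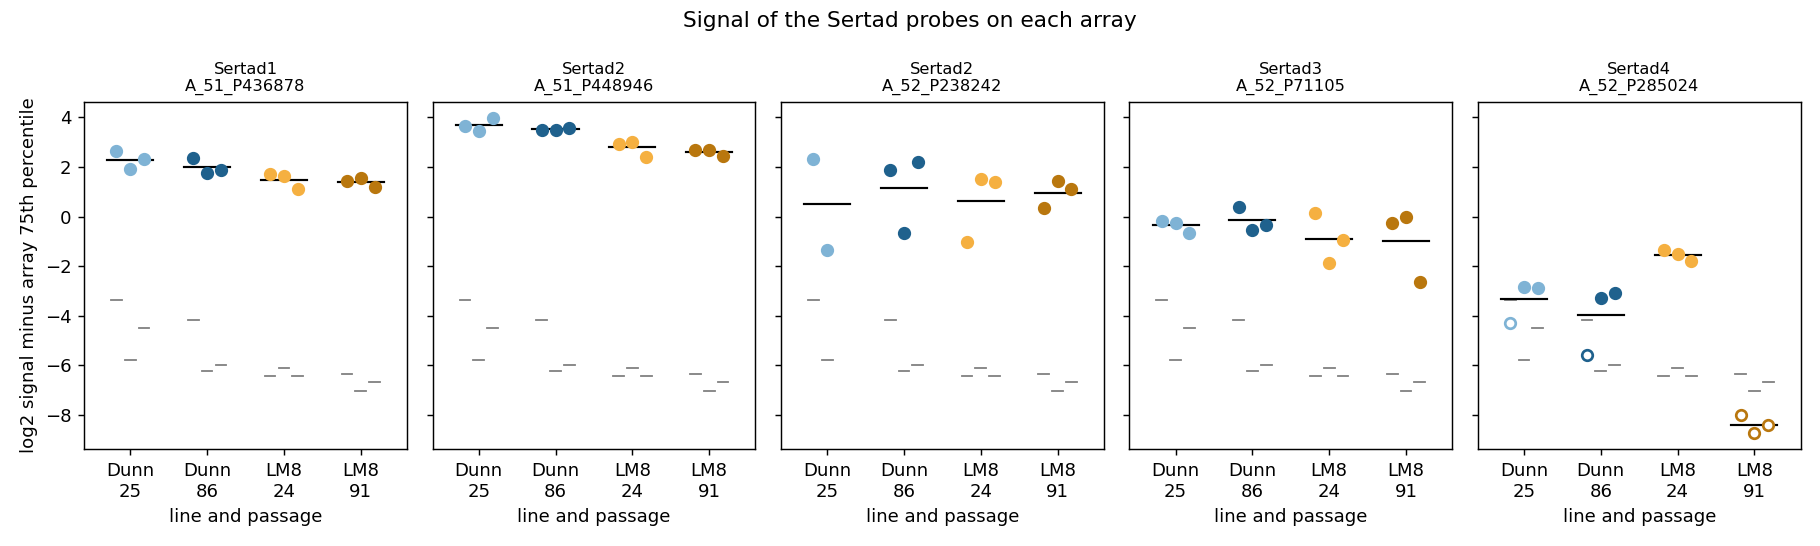
Signal of each Sertad probe (columns) on each of the 12 arrays, as log2 signal minus the 75th percentile of the array, by line and passage. Filled points were well above background and open points were not, black lines are group means, and grey marks give the dimmest probe well above background on that array. Sertad4 was open on all 3 late LM8 arrays and on the slide 1 array of each Dunn group, and the second Sertad2 probe has 2 values in early Dunn because 1 spot was an outlier.

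Sertad1, the Cdk4 partner, was well above background on all 12 arrays, and it was not called with passage in Dunn. Its signal was 2130, 1986 and 1248 in early Dunn, 3431, 2821 and 2246 in late Dunn, 2558, 3601 and 2314 in early LM8, and 2796, 4934 and 2873 in late LM8. Scaled to the 75th percentile, the level was 2.30 ± 0.36, 2.0 ± 0.32, 1.48 ± 0.33 and 1.40 ± 0.17 (SD, n = 3 each) in this order. Both passages of a line overlapped, while every LM8 array lay below every Dunn array of the same stage.

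The passage difference of Sertad1 was -0.30 (log2, SE 0.36) in Dunn, with a limma adjusted p of 0.847, and -0.09 (SE 0.24) in LM8. Within slides 1, 2 and 3 the Dunn difference was -0.29, -0.18 and -0.42, the same sign on each. The limma fit with the replicate block gave an adjusted p of 0.614. Relative to the median of all genes the Dunn difference was 0.06, and without scaling between arrays it was 0.68. Between the lines Sertad1 differed by -0.81 (SE 0.35, limma adjusted p = 0.12) at early passage and -0.60 (SE 0.26, adjusted p = 0.269) at late passage. Relative to the median of all genes these line differences were -0.04 and -0.03, relative to the median of genes well above background -0.45 and -0.39, and after quantile normalization, again relative to all genes, -0.51 and -0.43. Such a lack of overlap was also common, with 49.5% of all genes lower on every LM8 than on every Dunn array at early passage and 44.6% at late passage. With the deposited table and no scaling between arrays, the sign turned to 0.67 at early and 0.29 at late passage.

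Sertad2, the E2F and lipolysis coregulator, had 2 probes that behaved very differently. On probe A_51_P448946, used for the counts because its mean was higher, the signal was 4230, 5725 and 4024 in early Dunn, 7399, 9531 and 7213 in late Dunn, 5990, 9355 and 5763 in early LM8, and 6691, 10980 and 6729 in late LM8. The scaled level was 3.70 ± 0.27, 3.51 ± 0.05, 2.79 ± 0.33 and 2.61 ± 0.15 (n = 3 each). The passages of each line overlapped, and every LM8 array lay below every Dunn array of its stage.

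Late minus early Sertad2 levels were -0.18 in Dunn (log2, SE 0.30), where the limma adjusted p was 0.914, and -0.18 in LM8 (SE 0.23). The difference of LM8 from Dunn was -0.91 (log2, SE 0.33, adjusted p = 0.0845) at early passage and -0.91 (SE 0.21, adjusted p = 0.0998) at late passage. These were -0.14 and -0.33 relative to the median of all genes, -0.55 and -0.70 relative to that of genes well above background, and -0.51 and -0.71 relative to all genes after quantile normalization. The late difference passed the adjusted level under 3 alternatives (adjusted p = 0.0143 with probes well above background only, 0.0232 by the methods' t-test and 0.0336 after quantile normalization), always at less than 2-fold. Without scaling between arrays it was -0.01, and the early difference turned to 0.58.

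The other Sertad2 probe, A_52_P238242, read from 206.5 to 4633. In early Dunn it gave 1700 and 206.5, and its spot on the third array was an outlier left out of the fits. It gave 2483, 530.4 and 2822 in late Dunn, 382.9, 3311 and 2856 in early LM8, and 1324, 4633 and 2653 in late LM8. The SD within a group ran from 0.56 to 2.59 (log2), and the groups overlapped in every comparison. None of its differences was called, with adjusted p of 0.959, 0.944 and 0.882 by limma for Dunn passage and for the lines at early and late passage. The 2 probes share an accession, and why they differ was not tested.

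Sertad3, the Rpa2 partner, lies next to Sertad1 on chromosome 7 and varied most within LM8. The signal was 302, 437 and 161 in early Dunn, 880.1, 582.9 and 483.1 in late Dunn, 862.6, 317 and 559.7 in early LM8, and 852.1, 1699 and 200.1 in late LM8. On the scaled axis these are levels of -0.36 ± 0.26, -0.15 ± 0.49, -0.89 ± 1.00 and -0.97 ± 1.45 (n = 3 each), and all groups overlapped. No difference exceeded this spread. It was 0.20 (SE 0.38, limma adjusted p = 0.937) with passage in Dunn, -0.08 (SE 0.80) with passage in LM8, -0.54 (SE 0.53, adjusted p = 0.448) between the early lines and -0.82 (SE 0.78, adjusted p = 0.455) between the late lines. The interval of the last one, from -2.75 to 1.12, is wide. Relative to the median of all genes the line differences were 0.24 at early and -0.24 at late passage. Relative to that of genes well above background they were -0.18 and -0.61. Without scaling the line differences turned to 0.95 and 0.08.

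Counted over the family, 0 of 4 Sertad genes were called in late versus early Dunn (adjusted p under 0.05 and more than 2-fold), where 0% of all genes were called higher and 0.00497% lower by limma. At the unadjusted level of 0.05 with the same fold, 0 of 4 Sertad genes passed against 4.97% of all genes. Of the 3 genes tested between the lines, 0 were called at either stage, beside 1.32% of all genes higher and 3.35% lower in LM8 at early passage and 1.21% higher and 2.64% lower at late passage. The methods' t-test after adjustment also called 0. At an unadjusted p under 0.05 and whatever the fold, limma passed Sertad2 at both stages and neither Sertad1 nor Sertad3, but so it did 43.3% of all genes at early and 22.7% at late passage. The passage difference of LM8 minus that of Dunn was 0.21 for Sertad1, 0.00 for Sertad2 and -0.28 for Sertad3 (limma adjusted p = 1 for each). Here 0.358% of all genes were called higher and 0.258% lower.

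In late versus early LM8, where no Sertad gene was tested, 0.973% of all genes were called higher and 1.81% lower, and 17.6% of all genes lay lower on every late than on every early array. Sertad4 did so and is the member chosen for it. In the same comparison Sertad1, Sertad2 and Sertad3 differed by -0.09, -0.18 and -0.08 (log2).

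**Figure D2:**
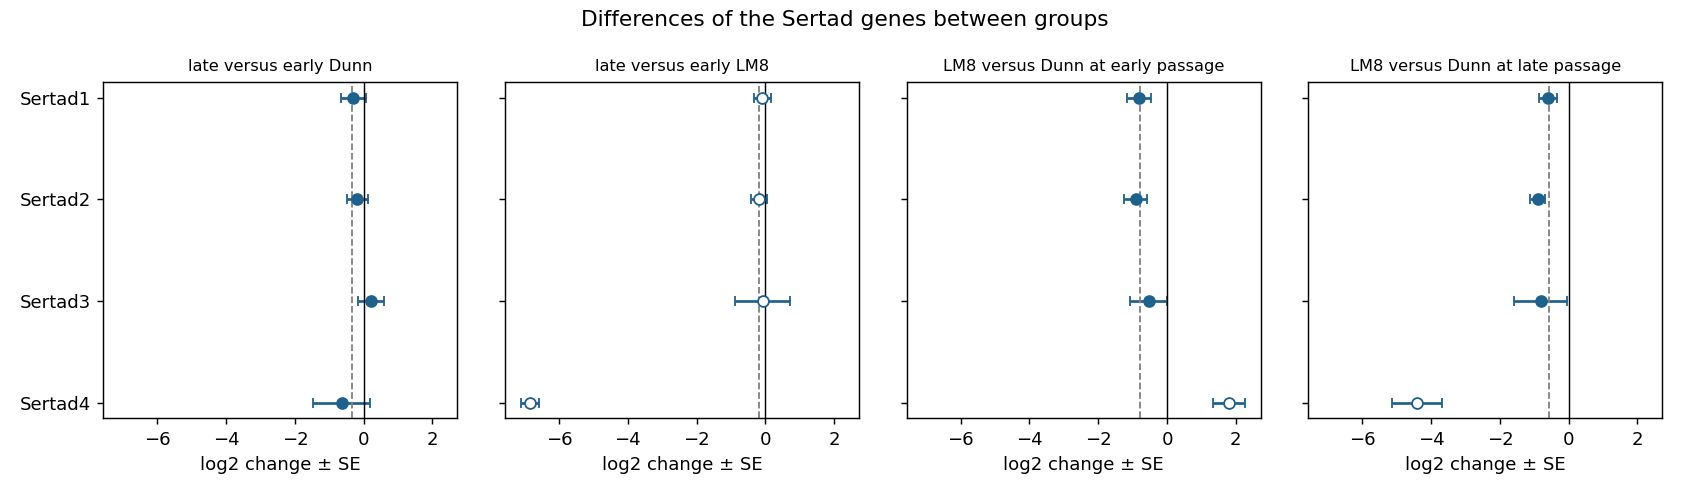
Log2 difference of each Sertad gene between groups (points, with bars of 1 SE from limma) in the 4 comparisons, with the median of all genes as a dashed line and no difference as a solid line. Open points have no test. Sertad4 was chosen by its LM8 values, and no Sertad gene was tested in late versus early LM8, the comparison behind that choice. Sertad1, Sertad2 and Sertad3 lie between -0.91 and 0.20 in all 4 comparisons, and Sertad4 stands at -6.84 in late versus early LM8 and at -4.41 in LM8 versus Dunn at late passage.

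Cdca4, another SERTA domain gene that is regulated by E2F and in turn modulates E2F activity, was well above background on all arrays. It had levels of 0.43 ± 0.76, 0.27 ± 0.15, 1.12 ± 0.29 and 0.90 ± 0.25 (n = 3 each) in early Dunn, late Dunn, early LM8 and late LM8. Unlike those of Sertad1 and Sertad2, its level was higher in LM8, by 0.70 (SE 0.45, limma adjusted p = 0.261) at early and 0.63 (SE 0.24, adjusted p = 0.238) at late passage, but neither difference was called. The medians of all genes in these 2 comparisons were -0.77 and -0.57. Late minus early levels of Cdca4 were -0.16 for Dunn and -0.22 for LM8 (limma adjusted p = 0.98 and 0.611).

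Of the 5 measured genes on either side of Sertad4 on chromosome 1, 0 of 10 were called with passage in LM8. Among all genes 0.973% were called higher and 1.81% lower there, so that this count does not set the neighbours apart. Their median difference was -0.48 (log2) against -0.20 for all genes. The widest fall was that of Traf3ip3, an adaptor of the TRAF proteins, at -1.19 (SE 0.37), without a call. Hhat, the acyltransferase that palmitoylates hedgehog proteins and the nearest measured gene on one side, moved by 0.27 (SE 0.67). Syt14, the nearest on the other side, and Kcnh1 were not well above background on any LM8 array.

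The same neighbours gave 0 calls in the other comparisons, and their median difference with passage in Dunn was -0.55, against -0.35 for all genes. Between the lines it was -1.27 at early and -1.04 at late passage, against -0.77 and -0.57 for all genes. Around Sertad1, Sertad2 and Sertad3 likewise, 0 of 9, 0 of 10 and 0 of 9 flanking genes outside the family were called in any comparison. Beside the shares of all genes given above, such counts do not set these genes apart. The medians of the flanking genes with passage in LM8 were -0.35, 0.11 and -0.35, against -0.20 for all genes. Sertad1 and Sertad3 share most of their flanking genes, so that their counts and medians are not independent.

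The kinase gene Cdk4, whose product Sertad1 binds, differed little between the groups on the scaled axis. Between the lines it differed by -0.27 at early and -0.28 at late passage, against medians of -0.77 and -0.57 for all genes. It stood at 4.76 ± 0.30 in early Dunn, 4.60 ± 0.18 in late Dunn, 4.49 ± 0.23 in early LM8 and 4.32 ± 0.18 in late LM8 (n = 3 each), and 0 of its differences were called. Of the 15 genes of the cyclin D and Cdk4 axis, all measured, 0 were called with passage in either line. Between the lines, the cyclin gene Ccnd2 was higher in early LM8 than in early Dunn by 3.33 (log2, SE 0.34, limma adjusted p = 0.00468). The Cdk inhibitor gene Cdkn1a was lower in late LM8 than in late Dunn, with a difference of -1.41 (SE 0.21, limma adjusted p = 0.0348). The median difference between the late lines was -0.57 for all genes and -0.21 for genes well above background. Ccnd2 had levels of -1.36 ± 0.26, 2.89 ± 0.19, 1.97 ± 0.37 and 2.44 ± 0.18 in the 4 groups. Early Dunn alone was low, and the late against early Dunn difference of 4.24 had an adjusted p of 0.0886. The passage difference of Ccnd2 in LM8 minus that in Dunn was -3.78 (SE 0.37, adjusted p = 0.00227). The Cdk4 inhibitor Cdkn2a was not well above background on any of the 12 arrays.

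Of the 10 E2F and DP genes, Tfdp1, the dimer partner of E2f1, was lower in early LM8 than in early Dunn, with a difference of -1.65 (log2, SE 0.29, limma adjusted p = 0.032). The median difference there was -0.77 for all genes and -0.36 for genes well above background. The level of Tfdp1 was 3.56 ± 0.19, 2.66 ± 0.35, 1.91 ± 0.08 and 2.04 ± 0.29 (n = 3 each) in early Dunn, late Dunn, early LM8 and late LM8. The other 9 were not called in any comparison. E2f1 itself stood between 2.28 and 2.60 in all groups. Among the 20 replication genes that E2F factors drive, such as Pcna, Mcm3 and Tk1, 0 were called in any comparison, and 0 of the 7 genes for binding partners (Rpa1, Rpa2, Rpa3, Trim28, Crebbp, Ep300 and Xiap) were. The partner of Sertad3, Rpa2, had levels between 0.63 and 0.98.

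Of the 9 genes of fat lipolysis, the process that Sertad2 is known to restrain, the lipase gene Pnpla2 was higher in early LM8 than in early Dunn by 2.41 (log2, SE 0.42, limma adjusted p = 0.0327). Plin1, which coats lipid droplets, was lower in early LM8, with a difference of -2.05 (SE 0.34, limma adjusted p = 0.0276), against a median of -0.77 for all genes. Cidea, another lipid droplet gene, fell with passage in LM8 by 1.54 (SE 0.23, limma adjusted p = 0.0231). It was well above background on all 3 late LM8 arrays, but its level there of -6.23 was near the limit. The dimmest signals well above background on these arrays were -6.37, -7.05 and -6.66. The Sertad2 target genes of fat cells, Lipe and Adrb3, were not called, and Adrb3 was not well above background on any array. The Sertad2 gene itself was not called between the early lines, as given above, and it was not tested with passage in LM8.

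Over all 61 genes of these 5 lists, which were chosen with earlier results of these data known, 0 were called with passage in Dunn (3 at an unadjusted p under 0.05 and more than 2-fold), 1 lower with passage in LM8, 2 higher and 2 lower between the early lines and 1 lower between the late lines. The shares of all genes given above by the same rules were 4.97% unadjusted in Dunn, 1.81% lower with passage in LM8, 1.32% higher and 3.35% lower between the early lines and 2.64% lower between the late lines, and counts this small do not set the lists apart. The medians were -0.16, 0.04, -0.24 and -0.24 (log2), against -0.35, -0.20, -0.77 and -0.57 for all genes. For genes well above background the medians were -0.24, -0.07, -0.36 and -0.21. Against these the gaps were smaller, and that between the late lines had the opposite sign. These counts moved with the processing. Between the early lines, 22 genes were called without the second early Dunn array, and 1 was called with the replicate block, with slides 2 and 3 only, without the third early Dunn array, or without any 1 of the early LM8 arrays. Between the late lines, 6 were called without the first late Dunn array and 0 with any other array left out. With passage in LM8, 0 were called without early LM8 array 1 or 2 or without late LM8 array 2 or 3.

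**Figure D3:**
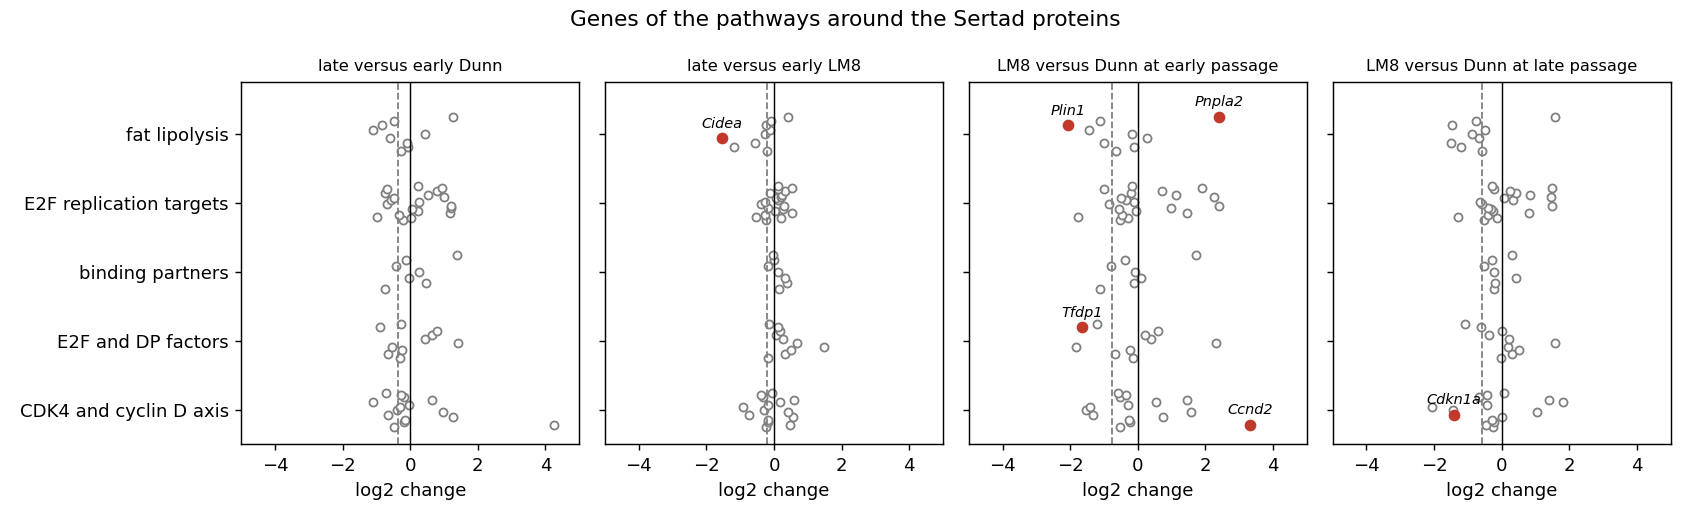
Log2 difference of each gene of the 5 lists around the Sertad proteins in the 4 comparisons, with genes called by limma (adjusted p under 0.05 and more than 2-fold) as filled, labelled points and all others open. Dashed lines mark the median of all genes. The called genes are Cidea in LM8 passage, Ccnd2, Pnpla2, Tfdp1 and Plin1 between the early lines, and Cdkn1a between the late lines.

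To find genes with a like pattern, each gene's profile over the 12 arrays was centred and set against that of Sertad4 by the root mean square difference, with dim signals raised to the lowest signal well above background. Of 11290 candidate genes, whose median difference was 1.89 (log2), the nearest were Gbp3 at 0.56, Rtp4 at 0.77, Parp14 at 0.80, Oasl2 at 0.81 and Oas1a at 0.87. Only 0.0709% of the candidates lay under 1. Gbp3 encodes a guanylate binding protein, Rtp4 a receptor transporter protein, Parp14 a poly(ADP-ribose) polymerase family member, and Oasl2 and Oas1a proteins of the oligoadenylate synthetase family.

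These genes were chosen for their likeness, and their values are a description. Gbp3 had levels of -2.86 ± 0.56, -3.35 ± 0.16, -1.98 ± 0.42 and -5.76 ± 0.24 (n = 3 each) in early Dunn, late Dunn, early LM8 and late LM8. Each of the 5 was highest in early LM8 and lowest in late LM8, as Sertad4 was, with differences of -3.40 for Parp14, -3.79 for Gbp3, -4.75 for Oasl2, -4.99 for Oas1a and -5.11 for Rtp4. Unlike Sertad4, they were still detected in late LM8. Gbp3, Rtp4, Oasl2 and Oas1a were well above background on all 3 late LM8 arrays, and Parp14 on 2. In Dunn the passage difference was -2.74 for Oasl2, -2.46 for Oas1a and -1.80 for Rtp4, against -0.48 for Gbp3 and -0.64 for Parp14 and for Sertad4.

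**Figure D4:**
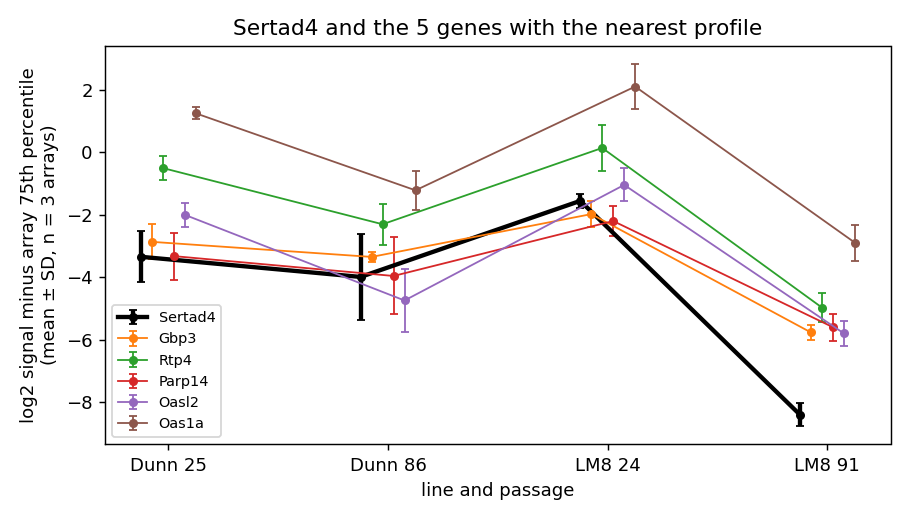
Level of Sertad4 and of the 5 genes with the nearest profile in each group, as log2 signal minus the 75th percentile of the array (points, mean; bars, SD of 3 arrays). All 6 peak in early LM8 and are lowest in late LM8, and levels of different probes are not comparable with each other.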

How the data were processed

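RNA of each line and passage was hybridised to 3 Agilent mouse arrays of the 4x44k v2 design with 1 colour. The authors deposited the output of Agilent Feature Extraction 10.7.3 for each array, and its processed signal is an intensity after background subtraction without scaling between arrays. The authors also deposited a table of all arrays, whose intensity values matched the processed signal within a ratio of 0.995 to 1.005.

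From these files, control spots and spots called outliers were left out, 43020 spots were averaged into 39429 probes as log2 values, and each array's 75th percentile was taken off. No spot was saturated on the late LM8 array of slide 3, and saturation was not counted on the other arrays. Probe accessions matched 26581 probes (67.4%) to RefSeq genes of GRCm38.p6, and all 4 Sertad genes and 6 promoter windows were found in the RefSeq tables. A gene with several probes was counted by that with the highest mean. Precision is limited by 3 arrays per group.

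The comparisons used limma 3.58.1 (R 4.3.3) on the arrays of the groups in question, without a block. P-values were adjusted by Benjamini-Hochberg over all probes, and a gene was called at an adjusted p under 0.05 and more than 2-fold. The line by passage interaction was fitted to all 12 arrays. A probe not well above background on any array of a group has a bound, set against the lowest signal well above background. Steps were tested on simulated data. Figures were drawn with matplotlib 3.10.9.

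The members and gene lists were chosen with earlier results of these data known. Named genes were the Sertad genes, Cdca4, list genes called in any comparison with Cdk4, E2f1 and Tfdp1, the 5 nearest measured genes on each side and the 5 most similar profiles. Other genes of the lists were named after their values were seen. One flanking gene is counted and not reported here by name. Replicate numbers mark the slide. Deviations from the group means correlated between -0.237 and 0.679 in 18 same-slide pairs, over 0.1 in 12.

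Alternatives were quantile normalization, the percentile over detected probes, the deposited table, a floor, a filter on dim probes, 1 fit over all arrays, a replicate block, the methods' t-test, leaving out each array and, added after seeing the data, normexp on median signals with an offset of 50 and slides 2 and 3 only. The paper gives TriReagent for RNA extraction, whereas the labels name RNeasy.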

Additional observations from a re-analysis of the deposited data

How the results depend on the processing

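The count of 0 Sertad genes called held in the 4 comparisons tested under every alternative run. With the replicate block, the limma adjusted p of Sertad2 was 0.161 between the early and 0.197 between the late lines, and the block called 0 Sertad genes. The bound on Sertad4 in late versus early LM8 cells moved from 35.3-fold to 23.5-fold with quantile normalization, 27.0-fold with the deposited table without scaling and 5.69-fold with normexp on median signals, and ran from 5.69 to 39.4 over all alternatives. Sertad2 passed the adjusted level between the early lines with 1 fit over all arrays (adjusted p = 0.04) and with probes well above background only (0.0488). Sertad4 in Dunn had no value under that filter, and leaving out the first late Dunn array turned its difference from -0.64 to 0.15.

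Counts of called genes of the 61 varied most. Between the early lines (4) they were 11 with 1 fit over all arrays and with the deposited table, 17 with the floor and with normexp, 12 with probes well above background only, 8 with quantile normalization and 1 with the replicate block and with slides 2 and 3 only, and leaving out an array gave 1 to 22. Between the late lines (1) they were 4 with 1 fit, quantile normalization, normexp and slides 2 and 3 only, 7 with probes well above background only, 2 by the methods' t-test and 0 with the deposited table, the percentile over detected probes and the replicate block, and leaving out an array gave 0 to 6. With passage in Dunn (0) they were 1 with 1 fit, quantile normalization, probes well above background only and slides 2 and 3 only. With passage in LM8 (1) they were 0 with the deposited table, the methods' t-test, normexp, the replicate block and slides 2 and 3 only, and leaving out an array gave 0 to 1. The cause of these moves was not tested.

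The planned normexp correction on mean signals was not run, because the files used here hold median signals. Signal over background limits Sertad4 in Dunn and in late LM8, where values are bounds or near background.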
